A study of Mus musculus with 20 samples.

Results

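A set of 10 genes of dead cell uptake and scavenging was followed in brain monocytes and microglia 3 days after a stroke. The genes were listed by symbol and looked up in both deposited expression tables, where all 10 were found among 16536 genes listed in the Cxcr4-GFP table and 16140 in the Cxcr4CreER table (called the Cre table). They are the receptor tyrosine kinases Mertk and Axl, their ligands Gas6 and Pros1, the scavenger receptors Cd36, Msr1, Stab1 and Scarb1, and the integrin chains Itgb5 and Itgav. None was chosen for its values in a given group.

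The stroke model was permanent photothrombosis, in which a light-activated dye clots vessels of the cortex. The GFP table holds 4 libraries of microglia and 4 of monocytes from Cxcr4-GFP reporter mice. The Cre table holds 3 libraries each of microglia and monocytes from Cxcr4CreER control mice, and 3 of each from Cxcr4CreER knockout (KO) mice, in which Cxcr4 is removed conditionally. All groups were taken at day 3 after the occlusion. In Cxcr4-GFP mice the microglia are labelled GFP-negative and the monocytes GFP-positive. In control and KO mice of the Cxcr4CreER line, TdT-positive cells are the monocytes and TdT-negative cells the microglia, so population and reporter signal coincide everywhere. KO microglia are therefore reporter-negative cells of KO mice, and the labels do not show that Cxcr4 was deleted in them. No age, sex or tamoxifen schedule is given in the sources used here. The GFP pairs came from 2 mice, a pool of 5 mice and 2 single mice, each source giving both populations. Of the Cre animals, 2 control and 2 KO mice gave both populations, and all other libraries came from mice of their own. The titles of the GFP libraries carry the tag BrKo, which the KO libraries carry too and the labels do not explain.

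Phagocytes take up dying cells by receptors that bind phosphatidylserine, a lipid exposed on the surface of dying cells, either directly or by way of bridging proteins. Mertk and Axl bind it through Gas6 and, for Mertk, Pros1 (protein S), and the αvβ5 integrin, made of the chains encoded by Itgav and Itgb5, binds it through the milk-fat protein encoded by Mfge8. The scavenger receptors take up modified lipoproteins, fatty acids and cell debris. In the brain, Mertk and Axl are known from microglia that clear dying neurons and from responses to injury.

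The sequences upstream of the start of 4 members show the DNA in front of genes that were called different between the populations of control mice: Mertk and Pros1, which were higher in microglia, and Axl and Cd36, which were higher in monocytes. They come from RefSeq (GRCm38.p6), which held an upstream sequence for 8 of the 10 members. Each is the 250 bases before the gene's start on the gene's own strand: Mertk at chr2:128698665-128698914 (plus strand), Pros1 at chr16:62854057-62854306 (plus), Axl at chr7:25788734-25788983 (minus) and Cd36 at chr5:17835897-17836146 (minus). Capitals mark the GC box GGGCGG and the ETS core GGAAGT on either strand, so that CCGCCC and ACTTCC are matches on the opposite strand. Neighbouring matches can overlap, as the last 2 of Pros1 do.
Mertk: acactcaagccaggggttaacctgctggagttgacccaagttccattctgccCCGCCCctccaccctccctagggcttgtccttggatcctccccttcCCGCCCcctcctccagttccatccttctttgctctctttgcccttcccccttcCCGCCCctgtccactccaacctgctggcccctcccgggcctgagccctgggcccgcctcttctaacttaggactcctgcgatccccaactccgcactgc
Pros1: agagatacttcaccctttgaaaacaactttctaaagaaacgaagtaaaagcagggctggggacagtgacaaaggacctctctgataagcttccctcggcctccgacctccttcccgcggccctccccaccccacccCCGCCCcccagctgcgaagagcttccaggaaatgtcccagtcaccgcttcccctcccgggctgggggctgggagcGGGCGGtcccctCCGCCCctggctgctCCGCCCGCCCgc
Axl: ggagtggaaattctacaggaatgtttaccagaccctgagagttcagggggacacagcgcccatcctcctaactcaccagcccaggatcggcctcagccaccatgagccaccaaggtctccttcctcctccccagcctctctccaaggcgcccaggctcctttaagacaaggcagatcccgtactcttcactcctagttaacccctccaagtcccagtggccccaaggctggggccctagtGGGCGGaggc
Cd36: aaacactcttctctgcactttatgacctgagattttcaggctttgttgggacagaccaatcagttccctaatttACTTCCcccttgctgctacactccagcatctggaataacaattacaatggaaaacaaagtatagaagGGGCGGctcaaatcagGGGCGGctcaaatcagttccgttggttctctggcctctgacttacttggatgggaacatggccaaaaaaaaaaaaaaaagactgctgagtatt
The GC box was found 3 times before Mertk, 5 times before Pros1, 1 time before Axl and 2 times before Cd36. It stood in 33.0% of 32536 upstream sequences of this length. The ETS core was found before Cd36 (1 match) and before Itgav (2 matches), against 19.8% of all upstream sequences with a match. GC content was 63.6% for Mertk, 64.4% for Pros1 and 60% for Axl, while Cd36 had 43.2%, against a median of 52.4% over all upstream sequences. Of 7 other motifs searched on both strands, the CCAAT box (CCAAT, 33.8% of upstream sequences) was found before Cd36 and Stab1, as was the MAF core (TGCTGA, 16.1%). The AP-1 site (TGANTCA, 6.73%), the TATA box (TATAAA, 12.3%), the E-box (CACGTG, 6.04%), the cAMP response element (TGACGTCA, 1.56%), and the RUNX core (TGTGGT, 14.0%) were not in these windows of the 8 members. Such a match describes letters and is not shown to be a bound site.

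A library of the Cre table held 9.73 to 56.8 M recovered reads and a GFP library 0.617 to 14.9 M. In all, 3 GFP libraries had fewer than 6000 detected genes, namely microglia 3 (5598), microglia 4 (3489) and monocytes 3 (3029), against 10422 to 14498 in the other GFP libraries. The GFP results for the 10 genes, their ratios and the other uptake lists are given with and without them. Cxcr4, the receptor of the chemokine Cxcl12 and the targeted gene, was at 1166 to 1332 normalized counts in control monocytes and at 536 to 1010.3 in KO monocytes, lower in every KO library, with a log2 difference of -0.70 (SE 1.10, adjusted p = 0.962 by limma), so the loss of the transcript was not called, and a count per gene cannot show which exons of Cxcr4 were removed. Summed microglia markers (12 genes) were 209928 to 332317 in Cre microglia and 23346 to 40546 in Cre monocytes, and 18978 to 32800 against 905 to 3749 in the GFP table. Summed monocyte markers (13 genes) were 14328 to 21422 in Cre microglia against 300209 to 373441 in Cre monocytes, and 328 to 599 against 6985 to 24371 in the GFP table.

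Values below are normalized counts, and a log2 fold is the difference of group means on the log2(normalized count + 1) scale. The added 1 shrinks the change of low genes, while a library near 0 can enlarge the fold of its group. A gene is called when its Benjamini-Hochberg adjusted p in limma is under 0.05 over all tested genes of the table. Levels are compared between groups of 1 table and never between genes or tables. In such sorted bulk samples, fewer cells of a type and less RNA per cell cannot be told apart.

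The first comparison asked how monocytes differed from microglia of control mice in the Cre table. Monocytes were higher in Axl, Cd36 and Msr1 and lower in Mertk and Pros1. Thus 5 of 10 members were called, 3 higher and 2 lower, against 6.52% of 12432 tested genes, of which 3.46% were higher and 3.06% lower. The libraries of both groups did not overlap for 6 of 10 members, the 5 called ones and Gas6, against 22.1% of all tested genes. The median log2 fold of the 10 members was -0.27, beside -0.24 for all tested genes, with a range from -4.04 to 3.69. In KO mice 4 of 10 members were called, Cd36 and Msr1 higher and Mertk and Pros1 lower, against 6.83% of tested genes (3.85% higher, 2.98% lower). There, 8 of 10 members did not overlap between the populations, against 27.5% of all tested genes. The additional ones were Gas6, Axl, Stab1 and Itgb5, which were not called. The count in control mice was 3 without control monocytes 1 or without control monocytes 3, and only Cd36 was called with the 2 control groups fitted alone. In KO mice 2 were called without KO monocytes 1, and 3 or 4 without any other KO library. The KO comparison has its own libraries and shares none with the control comparison, although all 12 libraries share 1 estimate of the spread.

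**Figure D1:**
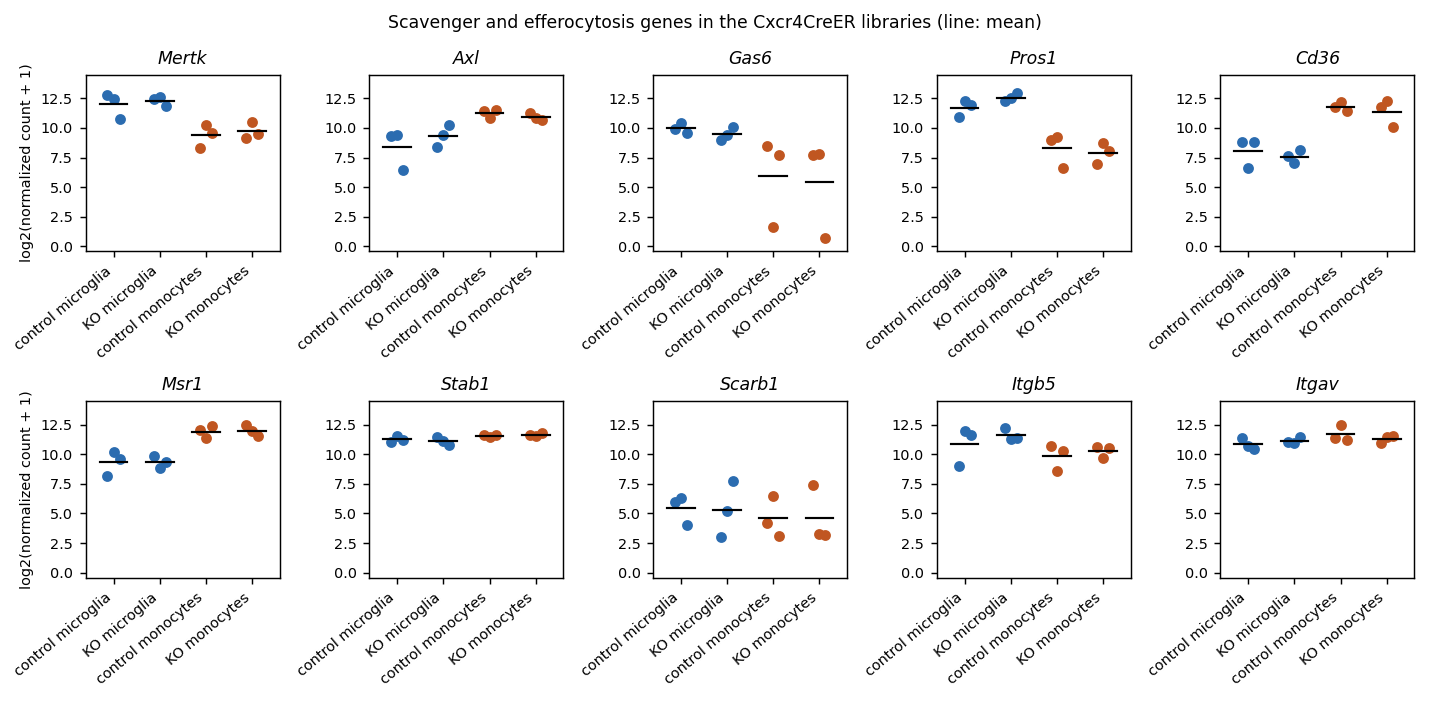
Log2(normalized count + 1) of the 10 genes in each library of the Cre table, with 3 libraries per group (points) and the group mean (line). Cd36 and Msr1 points of monocytes lie above all microglia points in both genotypes, and those of Mertk and Pros1 lie below them.

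Of the TAM receptors, Mertk, which tethers and engulfs dying cells, was higher in microglia. Control microglia had 7023, 5419.6 and 1717 normalized counts and control monocytes 324, 1218 and 751. KO microglia had 5438, 6229 and 3789 and KO monocytes 559.7, 1466 and 736. Every microglia library lay above every monocyte library in both genotypes, and control microglia 3 was the lowest of the microglia. The log2 fold of monocytes against microglia was -2.59 (SE 0.61, adjusted p = 0.0254) in control mice and -2.58 (SE 0.61, adjusted p = 0.0258) in KO mice. The call was lost in 5 of 16 alternative analyses in each genotype, among them leaving out control microglia 1 (-2.19, adjusted p = 0.0935) or KO monocytes 1 (-2.28, adjusted p = 0.0947), with log2 folds that stayed below 0.

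Axl, the other receptor, which is known to be induced in phagocytes by inflammatory signals, went the opposite way. Control monocytes had 2789, 1784 and 2857 normalized counts against 653, 677 and 87.1 in control microglia. KO monocytes had 2406, 1850.3 and 1624 against 330.1, 674 and 1229.7 in KO microglia. The groups did not overlap in either genotype, and the gap was narrower in KO mice, where KO microglia 3 was the highest microglia library. The log2 fold was 2.84 (SE 0.73, adjusted p = 0.0408) in control mice and 1.57 (SE 0.73, adjusted p = 0.267) in KO mice, so Axl was called in control mice and not in KO mice. The difference between these folds, -1.26 (SE 1.04, adjusted p = 0.999), was not called. The control call was lost in 8 of 16 alternatives, for example without the filter on low values (adjusted p = 0.0508), with CPM scaling (0.0664) and with edgeR (0.0938). Leaving out control microglia 3, with 87.1, brought the log2 fold to 1.86 (adjusted p = 0.0780).

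Within a library, the log2 ratio of Axl to Mertk depends on the scaling between libraries only through the pseudocount. Its level depends on the lengths of the genes, so only its differences are read. In control mice it was 3.10, 0.55 and 1.93 in monocytes against -3.42, -2.998 and -4.28 in microglia. In KO mice it was 2.10, 0.34 and 1.14 in monocytes against -4.04, -3.21 and -1.62 in microglia. All monocyte libraries lay above all microglia libraries within each genotype. The difference of means was 5.43 in control mice and 4.15 in KO mice, each with a two-sided exact permutation p of 0.1, the smallest that 3 against 3 libraries allow (adjusted p = 0.25 over 15 ratio comparisons). In the GFP table the difference was 4.29 (n = 4 against 4, exact permutation p = 0.0857, adjusted p = 0.25), where the smallest possible p is 0.0286. There the groups overlapped, because microglia 4 had a ratio of 1.21 while the other microglia were at -2.45, -2.15 and -8.53, and monocytes ran from 0.73 to 1.86. The GFP difference was 3.68 with a pseudocount of 10 and 3.43 without the libraries with few detected genes.

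**Figure D2:**
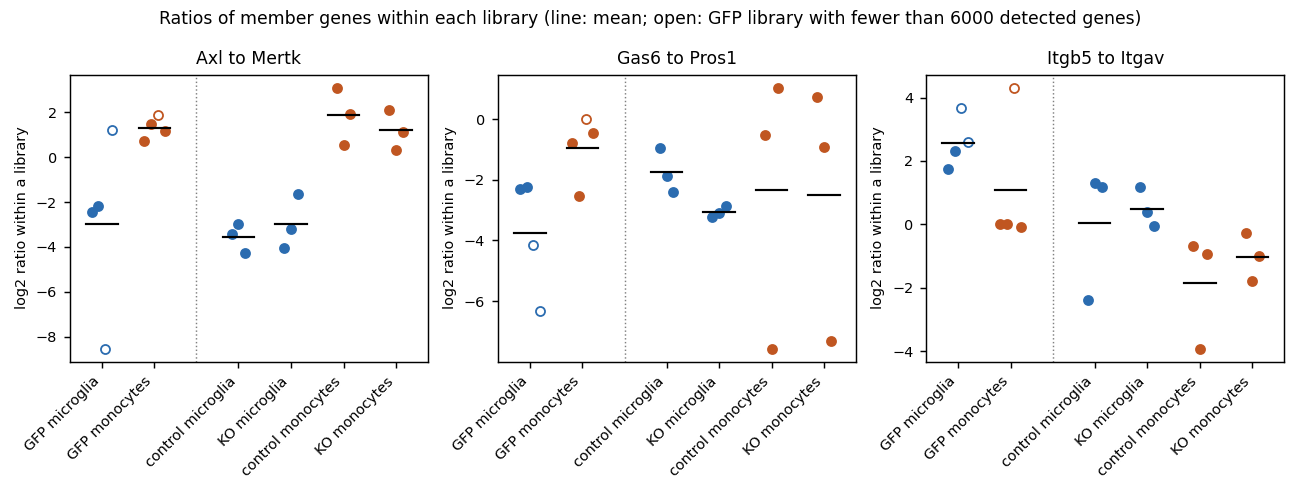
Log2 ratio of Axl to Mertk, Gas6 to Pros1 and Itgb5 to Itgav within each library (points) by group, with the mean (line) and open points for GFP libraries with fewer than 6000 detected genes. For Axl to Mertk, all Cre monocyte points lie above all microglia points of the same genotype.

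The ligands were both lower in monocytes, with a call for Pros1. Pros1, which bridges phosphatidylserine to Mertk and is also the anticoagulant protein S, was at 1919, 4969 and 3999.6 in control microglia and at 497, 606 and 99.7 in control monocytes. In KO mice it was at 4796, 5793 and 7927 in microglia and at 123, 421 and 268 in monocytes. The populations were far apart in both genotypes, with log2 folds of -3.43 (SE 0.69, adjusted p = 0.0112) in control and -4.64 (SE 0.69, adjusted p = 0.00188) in KO mice. The difference between the folds, -1.21 (SE 0.98, adjusted p = 0.999), was not called. The KO call held in all 16 alternatives, and the control call was lost with the 2 control groups fitted alone (adjusted p = 0.0722).

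Gas6, the ligand that binds Axl most tightly, was spread over a wide range in monocytes. Control microglia had 982, 1361 and 757 normalized counts, and control monocytes had 344, 2.19 and 206. KO microglia had 513, 681 and 1088, and KO monocytes 205, 224 and 0.668. The values 2.19 and 0.668 are 1 read each, and without them the other monocytes lay at 205 to 344. Monocytes were below microglia in every library of both genotypes, but with log2 folds of -4.04 (SE 1.93, adjusted p = 0.281) and -4.09 (SE 1.93, adjusted p = 0.275) Gas6 was not called.

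The ratio of Gas6 to Pros1 was lower in the KO microglia libraries than in the control microglia libraries. It was -3.22, -3.09 and -2.86 on the log2 scale in KO microglia and -0.97, -1.87 and -2.40 in control microglia, with no overlap. The difference was -1.31 (exact permutation p = 0.1, the smallest possible, and adjusted p = 0.25). With 3 libraries against 3 no p under 0.05 was possible, so this test cannot decide whether the genotypes differ. Neither gene was called on its own between these groups. Between the GFP populations the ratio differed by 2.81 with all libraries, with overlap (exact permutation p = 0.0857, adjusted p = 0.25). GFP monocytes 3 had 0 reads of both genes and GFP microglia 4 had 0 reads of Gas6, so these ratios depend on the pseudocount. Without the libraries with few detected genes the difference was 1.02.

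Of the scavenger receptors, Cd36, which takes up fatty acids and oxidized lipoprotein, had the largest positive fold of the 10 genes. Control monocytes had 3510.5, 4545 and 2671 normalized counts against 459.9, 97.5 and 439.9 in control microglia. KO monocytes had 3466, 4858 and 1059 against 192, 127 and 277 in KO microglia. No library overlapped, although KO monocytes 3 was well below the other KO monocytes. Its log2 fold was 3.69 (SE 0.70, adjusted p = 0.00825) in control and 3.78 (SE 0.70, adjusted p = 0.00698) in KO mice, and neither call was lost in any of 16 alternatives.

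Msr1, the class A scavenger receptor that binds modified lipoprotein and debris, was higher in monocytes of both genotypes. It was at 4133, 2574 and 5223 in control monocytes against 283, 1147 and 772 in control microglia. In KO mice it was at 5529.9, 3858 and 2953 against 905, 464 and 664. The groups were apart, with log2 folds of 2.60 in each genotype (SE 0.52; adjusted p = 0.0110 in control and 0.0109 in KO mice). The difference between them was 0.01 (95% interval -1.59 to 1.61). The calls were lost with the 2 control groups fitted alone (adjusted p = 0.0735) and without KO monocytes 1 (adjusted p = 0.0512).

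Stab1, a clearance receptor of macrophages and sinusoidal endothelium, was not called between the populations. It was at 2052, 2993 and 2380.0 in control microglia and at 3165, 2851 and 3087 in control monocytes. KO microglia had 2781, 2194 and 1736 and KO monocytes 3098, 2935 and 3454. The control groups overlapped and the KO groups did not, with log2 folds of 0.31 (SE 0.27, adjusted p = 0.584) and 0.52 (SE 0.27, adjusted p = 0.320) that were not called. Its 95% intervals, -0.28 to 0.90 and -0.07 to 1.11, were the narrowest of the 10 genes.

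Scarb1, the receptor of high-density lipoprotein, was low and erratic. It ran from 15.4 to 79.8 in control microglia, from 7.67 to 87.8 in control monocytes, from 7.29 to 210.3 in KO microglia and from 8.01 to 169 in KO monocytes. All groups overlapped, and a single library set the top of each KO group. The log2 folds were -0.85 (SE 1.62) in control and -0.71 (SE 1.62) in KO mice, and at this spread no difference was detectable.

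The integrin chains Itgb5 and Itgav form the αvβ5 receptor, and neither was called. Itgb5 was at 519, 3963 and 3127 in control microglia and at 1619, 375 and 1256 in control monocytes. KO microglia had 4704, 2557 and 2677 and KO monocytes 1586, 828 and 1464. The groups overlapped in control mice through microglia 1 and were apart in KO mice. The log2 folds were -1.02 (SE 0.75, adjusted p = 0.503) and -1.35 (SE 0.75, adjusted p = 0.359). Itgav was at 2694, 1621 and 1376 in control microglia and at 2614, 5673 and 2387 in control monocytes. KO microglia had 2069.9, 1969 and 2795 and KO monocytes 1929, 2877 and 2933. The Itgav groups overlapped in both genotypes, with log2 folds of 0.85 (SE 0.39, adjusted p = 0.263) and 0.17 (SE 0.39, adjusted p = 0.879). The log2 ratio of Itgb5 to Itgav was lower in monocytes than in microglia of KO mice by a difference of -1.53 without overlap (exact permutation p = 0.1, adjusted p = 0.25). In control mice the difference was -1.88 (exact permutation p = 0.3) and in GFP mice -1.51 (exact permutation p = 0.229), with overlap in both. It was -2.04 in GFP mice without the libraries with few detected genes.

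**Figure D3:**
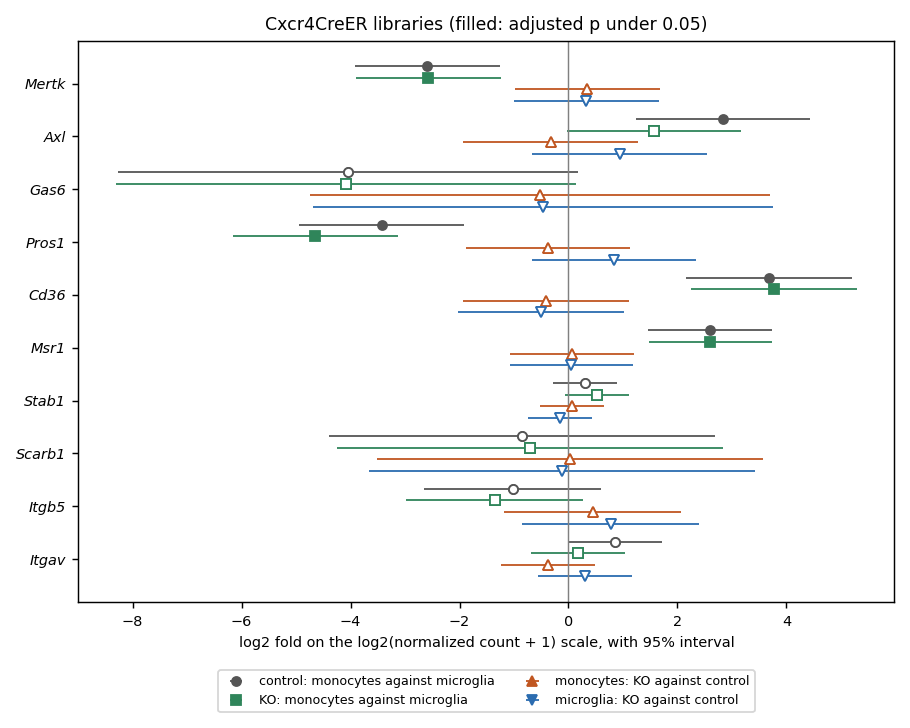
Log2 folds of the 10 genes in the Cre table with 95% intervals from limma, on the log2(normalized count + 1) scale, with filled symbols where the adjusted p was under 0.05. Monocytes against microglia gave 5 called genes in control and 4 in KO mice, and KO against control gave none in either population.

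The second comparison asked whether these genes differed between KO and control mice within a population. It found no call. In monocytes, limma called 0 of 10 members against 0.0402% of tested genes. In microglia it called 0 of 10 against 0.0322%, and for the genotype-by-population term 0 of 10 against 0%. No member had an unadjusted p under 0.05 in any of these tests (0, 0 and 0), against 6.08%, 3.53% and 4.75% of tested genes. EdgeR called 0 members each time, against 0%, 0% and 0% of genes, and DESeq2 called 0, against 2.73%, 0.877% and 2.22%. No member separated KO from control libraries, where 8.82% of all tested genes did in monocytes and 9.46% in microglia. These comparisons share libraries with those between populations.

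The intervals show what such data could have missed. For Stab1 the fold of KO against control was 1.04 (95% interval 0.693 to 1.56) in monocytes and 0.898 (0.598 to 1.35) in microglia. For Mertk it was 1.27 (0.503 to 3.19) in monocytes and 1.25 (0.497 to 3.15) in microglia. Axl had a fold of 0.798 (0.263 to 2.43) in monocytes and 1.92 (0.631 to 5.82) in microglia. For Msr1, whose folds were 1.04 (0.475 to 2.29) and 1.04 (0.472 to 2.27), both values were close to 1. Pros1 had 0.774 (0.272 to 2.198) in monocytes and 1.79 (0.631 to 5.10) in microglia. Cd36 had 0.748 (0.260 to 2.15) and 0.702 (0.244 to 2.02). The integrin chain Itgb5 had 1.36 (0.440 to 4.21) and 1.71 (0.553 to 5.29), and Itgav 0.772 (0.425 to 1.40) and 1.24 (0.681 to 2.25). Gas6 and Scarb1 had the widest intervals, for example 0.0373 to 13.01 for Gas6 in monocytes and 0.0872 to 11.8 for Scarb1. A change of several fold in Gas6 or Scarb1 was therefore not detectable here, while for Stab1 the intervals bound the change more closely.

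The third comparison asked how monocytes differed from microglia in Cxcr4-GFP mice. With all 8 libraries, limma called 0 of 9 tested members, against 0.908% of 7706 tested genes. Cd36 did not reach the filter on low values. Of these members, 4 had an unadjusted p under 0.05, namely Axl, Pros1, Msr1 and Itgb5, against 7.53% of genes. EdgeR called 0, against 1.3%, and DESeq2 called 1, Msr1, against 2.43% of genes. Axl and Msr1 were higher and Itgb5 lower in monocytes without overlap, 3 of 10 members against 9.41% of tested genes. Leaving out the 3 libraries with few detected genes left 2 microglia libraries, both from more than 1 mouse, and 3 monocyte libraries. In that fit, 5 of 9 members were called against 15.5% of the same genes. Those 5 were Mertk, Axl, Pros1, Msr1 and Itgb5. With the genes filtered anew on the remaining libraries, which called 15.3% of genes, Cd36 was tested and called too. Cd36 passed that filter only through the monocytes, so its call adds nothing to the count.

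**Figure D4:**
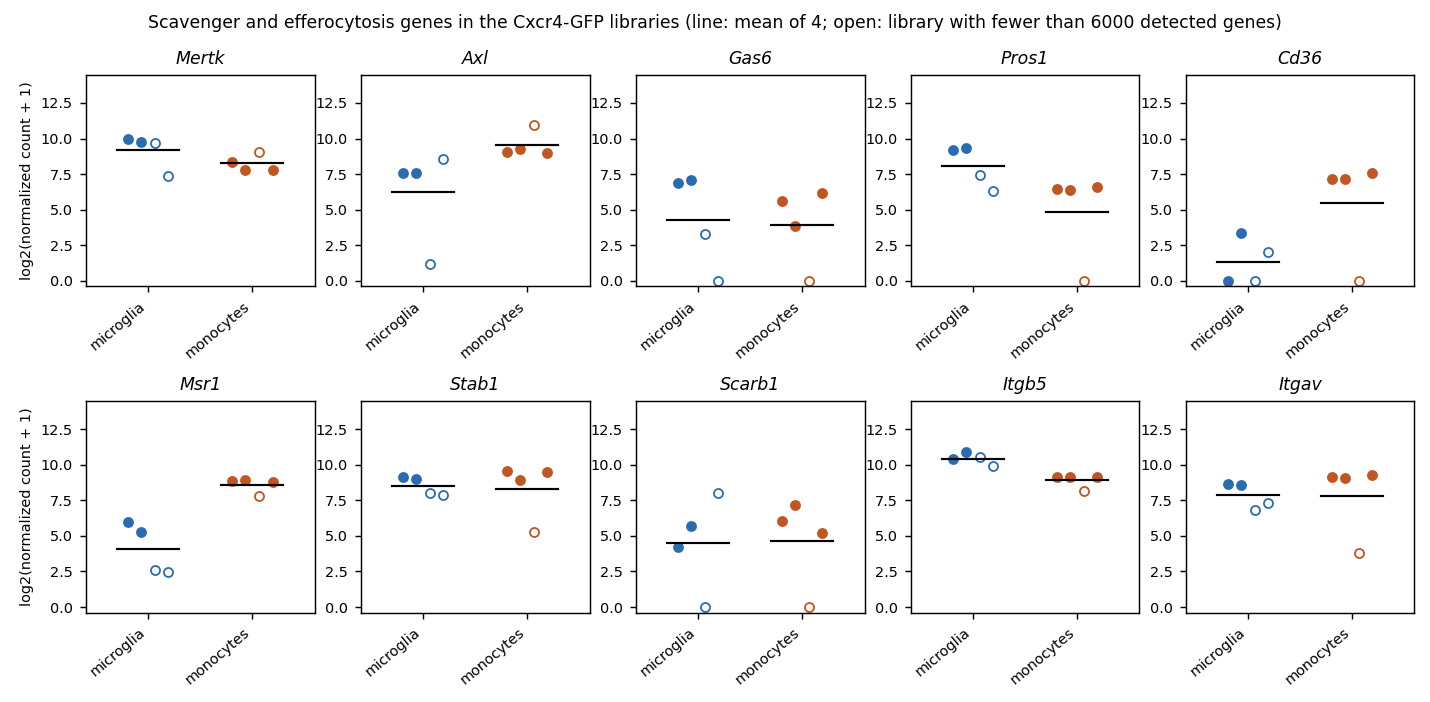
Log2(normalized count + 1) of the 10 genes in the 4 microglia and 4 monocyte libraries of Cxcr4-GFP mice (points), with the mean of 4 (line) and open points for the 3 libraries with fewer than 6000 detected genes. Axl and Msr1 are higher and Itgb5 lower in every monocyte library, and monocytes 3 (open) is the highest monocyte library for Mertk and Axl and the lowest for the other genes.

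In the GFP table, Mertk was at 1020.2, 861, 830.4 and 160.0 in microglia and at 326, 222, 539 and 221 in monocytes. Microglia 4, with few detected genes, lay below all monocytes, and the other microglia lay above them. The log2 fold was -0.94 (SE 0.72, adjusted p = 0.999) with all libraries and -1.89 (SE 0.24, adjusted p = 2.90e-04) without the libraries with few genes. Axl was at 186, 193, 1.25 and 370.4 in microglia, where 1.25 is 1 read, and at 541, 624, 1964 and 499 in monocytes. Its log2 fold was 3.36 (SE 1.17, adjusted p = 0.262), and 1.54 (SE 0.22, adjusted p = 6.00e-04) without those libraries. The libraries with few genes held both the lowest and the highest Axl value.

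Of the ligands, Pros1 was at 571, 642, 172 and 80.0 in GFP microglia and at 85.8, 82.6, 0 and 96.9 in monocytes. Its log2 fold was -3.21 (SE 1.45, adjusted p = 0.587), and -2.76 (SE 0.25, adjusted p = 2.01e-05) without the libraries with few genes. Gas6 was at 114, 134, 8.74 and 0 in microglia and at 48.9, 13.3, 0 and 70.3 in monocytes. The Gas6 groups overlapped, and its log2 fold, -0.39 (SE 2.15, adjusted p = 0.999), was -1.75 (SE 0.60, adjusted p = 0.0728) without those libraries.

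Cd36 was at 0, 9.04, 0 and 2.96 in GFP microglia and at 142, 138, 0 and 191 in monocytes. The 0 in monocytes belongs to monocytes 3, and without the libraries with few genes the log2 fold was 5.63 (SE 0.89, adjusted p = 0.00415, genes filtered anew). Msr1 was at 62.0, 37.0, 4.99 and 4.45 in microglia and at 455, 478, 227 and 453 in monocytes. Its groups were apart in all 8 libraries, with a log2 fold of 4.54 (SE 1.30, adjusted p = 0.110) that was 3.24 (SE 0.28, adjusted p = 1.60e-05) without those libraries. Stab1 was at 568, 517, 261 and 239 in microglia and at 754, 499.5, 37.0 and 722 in monocytes, and Scarb1 at 18.1, 50.3, 0 and 259 against 63.9, 146, 0 and 36.4. Both overlapped, with log2 folds of -0.21 (SE 0.86) for Stab1 and 0.12 (SE 2.10) for Scarb1, and neither was called without those libraries (0.26 and 1.18).

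Itgb5 was at 1356, 1906, 1471 and 948 in GFP microglia and at 573, 557, 282 and 577 in monocytes. All microglia were above all monocytes, and the log2 fold of -1.53 (SE 0.50, adjusted p = 0.209) was -1.50 (SE 0.21, adjusted p = 5.48e-04) without the libraries with few genes. Itgav was at 406, 381, 115 and 156 in microglia and at 565, 547, 13.2 and 608 in monocytes. Its groups overlapped through monocytes 3, with a log2 fold of -0.02 (SE 1.06) that was 0.54 (SE 0.20, adjusted p = 0.0994) without those libraries. The 5 members of the unchanged gene set that were called without those libraries had folds of the sign that they had in both Cre genotypes, where Itgb5 was not called in either and Axl not in KO mice.

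**Figure D5:**
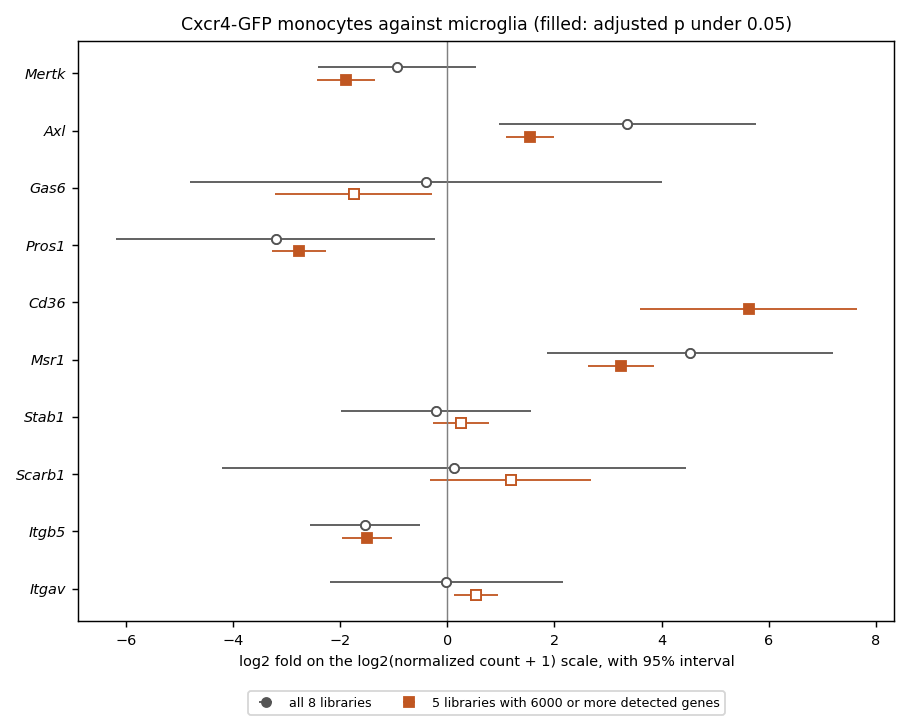
Log2 folds of monocytes against microglia in Cxcr4-GFP mice with 95% intervals from limma, with all 8 libraries and with the 5 libraries of 6000 or more detected genes (genes filtered anew), filled where the adjusted p was under 0.05. No gene is filled with all libraries, and 6 are filled with the 5 libraries, 2 of microglia and 3 of monocytes. Cd36 did not reach the filter with all 8.

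Summed markers of several other cell types were higher in Cre monocytes than in Cre microglia, although few genes of some lists were called. Summed border-associated macrophage markers (10 genes) were 1787 to 4414 in Cre microglia and 45149 to 60210 in Cre monocytes, and 2 of the 10, Lyve1 and Cd209f, were at 0 in all Cre monocytes. Of the 8 tested, 3 were higher and 0 lower in monocytes of either genotype. Over all tested genes, 3.46% were higher in control and 3.85% in KO monocytes. The median log2 fold of the list was 3.03 in control and 3.75 in KO mice. One member, F13a1, is also a monocyte marker, and Mrc1 and Cd163 are also among the other uptake receptors. Summed neutrophil markers (12 genes, 0 of them at 0 in all Cre monocytes) were 908 to 4077 in Cre microglia against 21097 to 78171 in Cre monocytes, and 892 to 1461 against 498 to 2138 in the GFP table. Of the 12 tested in Cre libraries, 6 were higher in control and 7 in KO monocytes, against the same 3.46% and 3.85% of all genes. In the GFP table the neutrophil ranges overlapped, although the sums of microglia 1 (1421) and microglia 4 (892) each came from 1 gene above 0. Ly6g, Retnlg, Ltf and Camp were at 0 in all GFP microglia, and no gene of the list was at 0 in all GFP monocytes. The 1 tested gene, Csf3r, was not called with all libraries. It was called lower in monocytes without the libraries with few detected genes, against 15.5% of genes. Summed dendritic cell markers (8 genes, with Clec9a at 0 in control monocytes and Batf3 in KO monocytes) were 110 to 716 against 1440 to 5680 in the Cre table. Of the 7 tested, 2 were called higher in monocytes of either genotype, beside those shares. Summed T cell markers (6 of 8 genes listed, with Lck at 0 in control monocytes) were 427 to 1826 against 2836 to 10937. Of the 5 tested, 1 was called higher in control and 0 in KO monocytes, beside those shares. In GFP mice the border-associated macrophage sum was 2.96 to 194 in microglia and 126 to 1765 in monocytes, with Cd209f at 0 in the monocytes. The part of such cells in the higher Axl, Cd36 and Msr1 of monocytes was not tested.

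Other genes of uptake show where the 10 members stand. Of 20 tested other uptake receptors, 4 were higher and 2 lower in control monocytes than in control microglia, and 3 higher and 1 lower in KO mice. The shares over all tested genes are those given above, 6.52% in control and 6.83% in KO mice. In GFP mice 0 of 16 were called with all libraries, against 0.908% of genes. Without the libraries with few detected genes 8 were higher and 5 lower there, against 15.5% of genes, an analysis of the lists chosen after seeing the data. Among them Cd300lb was higher in monocytes by 5.76 (adjusted p = 5.26e-04) on the log2 scale. Cd300lb passed the GFP filter on low values only through the monocytes (microglia at 0.538 ± 1.08, SD), so its call adds nothing to the count. Cd300lf, a phosphatidylserine receptor of myeloid cells, was higher by 4.03 (adjusted p = 0.00168) on the log2 scale in control and by 3.64 (adjusted p = 0.00308) in KO mice. Cd300lb was at 0 in all control microglia and at 282 ± 83.8 (SD, n = 3) in control monocytes, at least 339-fold higher, taking 3 reads in the whole group as the limit for a 0. Itgb3, another β chain partner of Itgav, was at 452 ± 46.3 in control microglia and 0.689 ± 0.645 in control monocytes, with a log2 fold of -8.14 (adjusted p = 0.0109). Neither Cd300lb nor Itgb3 was called between the KO populations. Of the control libraries, only monocytes reached the 10 counts of the filter for Cd300lb, and only microglia for Itgb3. Both control calls therefore add nothing to the count. Itgam, a chain of complement receptor 3, was lower (-1.40, adjusted p = 0.00168) and the β-glucan receptor Clec7a higher (2.97, adjusted p = 0.00151) in KO monocytes than in KO microglia. In control mice Itgam (-1.21, adjusted p = 0.00409) and Clec7a (2.85, adjusted p = 0.00203) were called in the same directions.

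Of 18 tested bridging and eat-me proteins, 5 were higher and 3 lower in control monocytes, and 6 higher and 3 lower in KO monocytes. The shares of all tested genes called were 6.52% in control and 6.83% in KO mice. Among GFP mice, 15 were tested, with 3 higher and 3 lower in monocytes, against 0.908% of genes. Without the libraries with few detected genes, 6 were higher and 4 lower, against 15.5% of genes. The lower ones in the comparisons with all libraries were C1qa, C1qb and C1qc, the chains of the complement protein C1q. Thrombospondin 1 (Thbs1), a bridging protein that binds Cd36, was at 39461 ± 10270 in control monocytes against 301 ± 249 in control microglia, a log2 fold of 7.70 (adjusted p = 2.38e-04). Its log2 fold was 6.41 (adjusted p = 7.47e-04) in KO mice and 8.25 (adjusted p = 1.57e-05) in the GFP table. Lgals3, galectin-3, which can bind Mertk, was higher in monocytes by 5.32 (adjusted p = 3.79e-06) in control and by 4.96 (adjusted p = 4.29e-06) in KO mice. In GFP mice it was higher by 6.99 (adjusted p = 0.0354). There Lgals3 passed the filter on low values only through the monocytes (microglia at 2.92 ± 3.24), so its GFP calls add nothing to the counts. Without the libraries with few detected genes the GFP log2 folds were 6.34 for Thbs1 (adjusted p = 3.44e-08) and 7.82 for Lgals3 (adjusted p = 4.07e-06). Anxa1, a phosphatidylserine-binding annexin, was at 11913 ± 1919 against 1.36 ± 1.18 in control mice (log2 fold 12.46, adjusted p = 2.13e-04) and had a log2 fold of 10.30 (adjusted p = 7.15e-04) in KO mice. Of the control libraries, only monocytes reached the 10 counts of the filter for Anxa1, so its control call adds nothing to the count. The complement component C3 was higher in KO monocytes than in KO microglia by 7.86 (adjusted p = 0.0419), and the lipid carrier Apoe was higher in GFP monocytes by 4.52 (adjusted p = 1.13e-05), or 3.27 (adjusted p = 1.61e-06) without those libraries. Apoe was also called higher in monocytes of control mice (3.98, adjusted p = 1.70e-04) and of KO mice (4.10, adjusted p = 1.45e-04).

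Of 27 tested genes of the engulfment machinery inside the cell, 2 were higher in control monocytes and 1 was lower in KO monocytes, shares to be read beside the 6.52% and 6.83% of all genes. In GFP mice 0 of 22 were called with all libraries, against 0.908% of genes. Without the libraries with few detected genes, 7 were higher and 3 lower in monocytes, against 15.5% of genes. Rab7, a GTPase of late endosomes, had the smallest unadjusted p with all GFP libraries (log2 fold 1.49, adjusted p = 0.592) and a log2 fold of 1.61 (adjusted p = 7.77e-04) without those libraries. The genes called in the Cre table were the exchange factors Dock5 (log2 fold 6.52, adjusted p = 0.0313) and Vav3 in control mice and the GTPase Rac1 in KO mice (-0.79, adjusted p = 0.0415). Vav3 was at 0 in control microglia and at 193, 1082 and 46.03 in control monocytes, of which the lowest library lay at least 55-fold above the limit of 3 reads in the microglia. Dock5 was at 0.328 ± 0.568 in control microglia. Of the control libraries, only monocytes reached the 10 counts of the filter for Dock5 and Vav3, so both calls add nothing to the count. Of 10 tested nuclear receptors and transcription factors of uptake, 1 was called in each genotype, against the same 6.52% and 6.83% of all genes. Nfe2l2, the factor Nrf2, was higher by 1.31 (adjusted p = 0.00703) in control monocytes. Nr1h3, the oxysterol receptor LXRα, which induces Mertk in macrophages, was at 0 in KO microglia and at 30.8 to 267 in KO monocytes (median 262), of which the lowest library lay at least 28-fold above that limit. Of the KO libraries, only monocytes reached the filter for Nr1h3, so its call adds nothing to the count. In GFP mice 0 of 8 tested genes of this list were called with all libraries, against 0.908% of genes. Without those with few detected genes, 2 were higher and 0 lower, against 15.5% of genes.

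Between KO and control mice no gene of these 4 lists was called in either population, against 0.0402% of tested genes in monocytes and 0.0322% in microglia. The genes with the smallest p in monocytes were Mrc1 (log2 fold 2.01, adjusted p = 0.711), Mfge8 (0 in KO and 103 ± 159 in control monocytes, adjusted p = 0.830), Elmo2 (2.93, adjusted p = 0.847) and Rxrb (3.02, adjusted p = 0.852). In microglia they were Olr1 (-3.85, adjusted p = 1), Anxa1 (2.60, adjusted p = 1), Xkr8 (4.01, adjusted p = 0.943) and Nfe2l2 (0.64, adjusted p = 1).

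Genes with the most similar pattern were sought for 4 members over the 12 Cre libraries among 9417 genes with a mean of 50 or more, by Pearson correlation of log2(normalized count + 1). These libraries share the split into populations, so the correlations are a description and have no p. Among the closest to Mertk were Man1a (r = 0.954) and Rpl10a (0.950). Closest to Axl were Capn2 (0.950), Hnrnpf (0.944) and Apoc2 (0.941), the last a lipoprotein component. Gas6 was closest to Pkp4 (0.950), Clcn3 (0.947) and Trp53bp2 (0.945), and Msr1 to the calcium-binding S100a6 (0.971), to Cd300lf (0.966) and to S100a4 (0.959).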

How the data were processed

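RNA of sorted microglia and monocytes was measured in 20 libraries, grouped by the genotype and population in the labels. Per the labels' protocols, total RNA and the Nugen Ovation SoLo kit were used for the GFP libraries, and SMART-Seq2 on polyA RNA for the Cre libraries. Per the submitters' processing notes, the Cre table was made with kallisto, DESeq2 and bcl2fastq 2.20 and the GFP table with DESeq2 and CASAVA 1.82. Build and annotation, and the GFP aligner, are not given in the sources used for this text. The values the authors deposited are a signal, gene counts divided by 1 size factor per library, normalized separately in each table. Within each library, 100% of values above 0 were within 0.01 of a whole multiple of the smallest, from which whole reads were recovered. Of the Cre gene names, 614 altered ones were restored to a RefSeq symbol and 24 had become dates.

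Genes that reached 10 normalized counts in 4 GFP or 3 Cre libraries were tested on log2(value + 1) with limma 3.58.1 (R 4.3.3, intensity trend, two-sided, Benjamini-Hochberg over all tested genes), which left 7706 and 12432 genes. The 4 Cre groups shared 1 estimate of the spread. The fits were also run on simulated counts with the same dispersion for every gene, and no result here rests on that run. Count tests on recovered reads, with edgeR 4.0.16 and DESeq2 1.42.0, called 100 and 187 genes in the GFP table, 478 and 1614 between control populations and 522 and 1570 between KO populations. Ratios were compared by exact permutation over libraries. Floors of 3 reads and 95% intervals cover counting or library spread only.

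Libraries of 1 animal or pool share it by their titles; their deviations from the group means correlated at 0.24, 0.20, 0.13 and -0.11 in the GFP table and at -0.06 to 0.01 in the Cre table. All 10 genes are named in every comparison. Of 4 lists of other uptake genes, up to 3 called genes with the largest log2 fold and no overlap are named per comparison, or the 1 with the smallest p; some genes that the rules name are not reported here; C1qa, C1qb and C1qc were named after their values were seen. The genes, lists and tests were chosen with earlier results of these data known. Of 13 marker lists, 7 not described with the results had these summed ranges over the Cre microglia and monocytes: endothelial 242 to 683 and 425 to 882, mural 38.8 to 249 and 13.02 to 299, astrocyte 1589 to 2974 and 339 to 2546, oligodendrocyte 1662 to 2493 and 1017 to 2495, neuron 0.703 to 259 and 0.868 to 676, B cell 415 to 1017 and 2.00 to 364, and erythroid 397 to 3516 and 0 to 1520.2.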

Additional observations from a re-analysis of the deposited data

Results flagged for a closer look

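Among 20 pairs of a gene and a GFP group, 5 held a library whose gap to its nearest neighbour, divided by the range of the group, was above Dixon's 95% critical value, all in GFP monocytes 3, which had 3029 detected genes. Chance alone gives such a library in about 1 in 20 groups, and these genes share the library. Axl was at 1964 normalized counts there, against 499 to 624 in the other monocytes. Pros1 was at 0, against 82.6 to 96.9. Msr1 was at 227, against 453 to 478. Itgb5 was at 282, against 557 to 577. Itgav was at 13.2, against 547 to 608. Groups of 3, as in the Cre table, were not examined in this way.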

How the results depend on the processing

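Alternatives were a pseudocount of 10, no filter or a filter at 50, upper quartile, TMM and CPM scaling, edgeR, DESeq2, the animal as a block, each library left out, the 2 compared groups alone, and the GFP table without its 3 libraries with few genes (also with genes filtered anew and for the other uptake lists, both chosen after seeing the data). Where 1 library of a group is left out, the rest share the spread of all groups. The animal as replicate block was a paired fit in the GFP table. In the Cre table, where not every animal gave both populations, it was a correlation shared within animals, estimated at -0.066. With this block, 0 members were called in the GFP table, 5 between control populations, 4 between KO populations and 0 in the KO and genotype-by-population comparisons, and no member's call changed. GFP calls were 2 with a pseudocount of 10, 1 with DESeq2, 5 and 6 without the libraries with few genes, and 0 to 1 without a library (Axl without microglia 1). Control calls were 3 to 4 without a library and 1 with the 2 groups alone, and KO calls 2 to 4 without a library. Changes of sign were all in members that were not called; the cause was not tested. In GFP mice, Stab1 had 0.33 (edgeR), 0.34 (DESeq2) and 0.26 (few-gene libraries left out), Scarb1 -0.11 (upper quartile), -0.41 (edgeR) and -0.40 (DESeq2), and Itgav 0.11 (pseudocount 10), 0.13 (CPM), 0.72 (edgeR), 0.71 (DESeq2) and 0.54 (few-gene libraries left out). Between KO populations Itgav had -0.081 with CPM. Between KO and control microglia, Msr1 had -0.12 with both edgeR and DESeq2 and Scarb1 0.028 (pseudocount 10), 0.66 (edgeR) and 0.69 (DESeq2). With a pseudocount of 10, the log2 ratio of Gas6 to Pros1 differed by 0.0027 between control populations and by 0.10 between KO and control monocytes. Leaving out 1 library at a time gave these ranges. GFP: Gas6 -1.83 to 0.91, Stab1 -0.62 to 0.82, Scarb1 -1.37 to 1.66, Itgav -0.49 to 1.32. KO populations: Scarb1 -2.10 to 0.49. KO against control monocytes: Mertk -0.18 to 0.78, Gas6 -2.65 to 1.816, Pros1 -1.19 to 0.11, Cd36 -0.87 to 0.23, Msr1 -0.22 to 0.29, Stab1 -0.0076 to 0.11, Scarb1 -1.38 to 0.96, Itgb5 -0.20 to 0.86, Itgav -0.60 to 0.021. KO against control microglia: Mertk -0.29 to 0.73, Axl -0.035 to 1.44, Msr1 -0.53 to 0.48, Stab1 -0.33 to 0.015, Scarb1 -1.33 to 1.01, Itgb5 -0.15 to 1.32. Log2 ratio of Itgb5 to Itgav: KO against control microglia -0.74 to 1.10, and monocytes -0.22 to 1.39. Log2 ratio of Gas6 to Pros1: KO against control monocytes -2.76 to 2.26, control populations -2.30 to 2.00, KO populations -1.06 to 2.97. Log2 ratio of Axl to Mertk, KO against control microglia: -0.053 to 1.15. Over all genes, calls moved from 70 to 1198 without the few-gene libraries and to 198 with a pseudocount of 10 (GFP), from 810 to 386 with the 2 control groups alone, from 5 to 339 (DESeq2) or 0 (edgeR) in KO monocytes, from 4 to 109 or 0 in KO microglia and from 0 to 276 or 0 for the genotype-by-population term. CPM scaling moved the median log2 fold of all genes from 0.51 to 0.65 (GFP), from -0.24 to -0.40 (control) and from -0.25 to -0.48 (KO), and the KO split from 479 higher and 370 lower to 374 and 460. Depth limits Gas6 and Axl where a library held 1 read.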
